A study of Mus musculus with 40 samples.

Results

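The genes *Myoz1*, *Myoz2*, *Actn2*, *Actn3*, *Csrp3*, *Myom3*, *Ankrd2* and *Ankrd1* encode proteins of the Z-disc, the M-band and the stretch response of muscle fibers. Their signal intensities were followed in the gastrocnemius and the quadriceps of mice on 2 diets. They were chosen with earlier results of these data known, and were found by the Entrez gene of their probe set. All 8 were on the array, with 1 probe set each among 16475 probe sets other than controls, and all 8 were among the 6479 whose mean signal intensity over all arrays was above 20. *Myoz2*, *Csrp3*, *Actn2* and *Myom3* had higher signals in the gastrocnemius on both diets, and *Ankrd2* passed the thresholds on the high fat diet, and on the low fat diet only when the muscles were paired by mouse. *Myoz1* and *Actn3* had nearly the same signal intensity in all 4 groups.

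In the sarcomere, the repeating unit of the contractile fibril, actin filaments are anchored in the Z-disc and myosin filaments are linked in the M-band. The actinins cross-link actin filaments in the Z-disc. Actn2 is made in all fibers and Actn3 in fast glycolytic fibers. The myozenins bind actinin and the phosphatase calcineurin, with Myoz1 known from fast and Myoz2 from slow fibers and the heart. Csrp3, the muscle LIM protein, sits at the Z-disc and is linked to mechanical sensing, and Myom3 is a myomesin, which bridges myosin filaments. Ankrd1 and Ankrd2 are ankyrin repeat proteins that bind titin, the elastic filament of the sarcomere, and are known for their increase after stretch.

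Male C57BL/6J mice, spelled C56BL/6J in the labels, were 20 weeks old at sampling and had been fed a low fat diet (LFD) or a high fat diet (HFD) for 8 weeks. All mice had first eaten the LFD as a run-in, so the LFD mice are the control group. Both muscles were taken from each of 10 LFD and 10 HFD mice and each was hybridised to 1 array, which gives 40 arrays in 4 groups of 10. The extraction text of the labels names the quadriceps for all 40 arrays, and the muscle was taken from the titles and characteristics.

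The arrays held the signals of skeletal muscle. *Acta1* was at 25309 or above and *Ckm* at 18698 or above on all arrays, whereas *Nppa*, *Nppb*, *Myh6*, *Tnni3* and *Myl7*, 5 of 8 listed heart genes, stayed at 5.9 or below, and *Tnnt2* reached 29.7. The other two were measured above this level and differed between the muscles. The cardiac actin *Actc1* ranged from 1360 to 5036 and was lower in the gastrocnemius (log2 fold change -0.67 in LFD and -0.66 in HFD mice, limma's adjusted p = 0.00847 and 0.00202). The light chain *Myl4* ranged from 18.7 to 194 and was higher there (1.10 and 1.09, adjusted p = 0.0099 and 0.00105).

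The arrays of mouse 141 stood apart, and its quadriceps and gastrocnemius did not separate by genes that separated the muscles of the other mice. *Tbx1*, a transcription factor gene of the quadriceps in these arrays, was at 242 in its quadriceps and 205 in its gastrocnemius. The other 9 LFD mice had 354 to 634 and 36 to 56.3. *Hoxd8* was at 346 in its quadriceps, above the 60.8 to 147 of the other LFD mice, and at 362 in its gastrocnemius, below their 533 to 761. The comparisons of muscles and of diets that use LFD mice were therefore also made without mouse 141, for the members and for the gene lists. Among the lists, *Scx* and *Hspb7* were then also called higher in the gastrocnemius of LFD mice, and no other call changed.

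Signals of 8 neutrophil markers, all of them measured, summed to between 38.3 and 48.5 on every gastrocnemius array. In the quadriceps their sum reached 2613 in LFD and 13447 in HFD mice, with medians of 44.4 and 1274; 3 of the 6 tested were lower in the gastrocnemius of HFD mice (*S100a8*, *S100a9* and *Camp*) and 0 in LFD mice by limma, where 5 had an unadjusted p under 0.05. Adipocyte markers were lower in the gastrocnemius for 3 of 5 tested in LFD and 1 of 5 in HFD mice, with sums of 5996 to 9747 against 5392 to 6953 in LFD mice and of 6561 to 11122 against 5375 to 10516 in HFD mice. Both tested markers of Schwann cells and myelin were higher in the gastrocnemius, with sums of 618 to 1302 against 456 to 689 in LFD mice and of 566 to 1360 against 430 to 714 in HFD mice. Of 5 tested tendon genes, *Thbs4* was called higher in the gastrocnemius of LFD mice (log2 fold change 0.46, limma's adjusted p = 0.000122), and *Thbs4* and the transcription factor gene *Scx* in HFD mice (0.48 and 0.52, adjusted p = 0.000667 and 0.0165). Without mouse 141 *Scx* was also called in LFD mice (0.61, adjusted p = 0.00312). The tendon sums were 2677 to 3841 against 2260 to 2809 in LFD mice and 2719 to 3987 against 1943 to 3338 in HFD mice. Of 6 fibroblast genes, the collagen gene *Col3a1* was called lower in the gastrocnemius of HFD mice (-0.43, adjusted p = 0.0168), and the sums overlapped, at 8876 to 11560 against 8945 to 11464 in LFD and 8039 to 11852 against 8252 to 11851 in HFD mice. Of 5 tested macrophage and 5 tested endothelium markers, 0 were called on either diet. Over all tested probe sets 1.1% were called lower in the gastrocnemius of LFD and 1.54% of HFD mice. Called higher were 1.42% and 1.91%. The part of these cells in the results for the members was not tested.

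Promoter sequences from RefSeq (build GRCm38.p6) were available for 6 of the 8 genes, *Myoz2*, *Csrp3*, *Actn2*, *Myom3*, *Ankrd2* and *Ankrd1*. They are shown for the genes that rose in the gastrocnemius and for *Ankrd1*, which did not, as the 250 bases before the gene's start, on the strand of the gene. The letters searched on both strands were the E-box CANNTG, which myogenic factors bind, the MCAT element CATTCC, the TATA box TATAAA and the MEF2 site. The MEF2 site was taken as C or T, then TA, a run of A or T, TA, and A or G. Matches are in capitals. A TATA box can lie inside a MEF2 site. No matches overlapped here, but only the exact letters TATAAA were searched, and looser forms of the TATA box were not.
*Myoz2*, chr3:123034988-123035237, minus strand: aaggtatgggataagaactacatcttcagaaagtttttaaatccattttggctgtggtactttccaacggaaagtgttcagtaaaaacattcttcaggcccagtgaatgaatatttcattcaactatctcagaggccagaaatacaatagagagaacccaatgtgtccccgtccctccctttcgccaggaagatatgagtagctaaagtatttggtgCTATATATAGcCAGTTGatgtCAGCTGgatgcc
*Csrp3*, chr7:48848052-48848301, minus strand: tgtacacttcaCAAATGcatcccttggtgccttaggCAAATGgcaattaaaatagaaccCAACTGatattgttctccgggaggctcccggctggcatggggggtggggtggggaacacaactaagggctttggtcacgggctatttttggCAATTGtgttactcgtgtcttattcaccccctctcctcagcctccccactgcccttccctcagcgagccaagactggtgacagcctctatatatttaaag
*Actn2*, chr13:12340733-12340982, minus strand: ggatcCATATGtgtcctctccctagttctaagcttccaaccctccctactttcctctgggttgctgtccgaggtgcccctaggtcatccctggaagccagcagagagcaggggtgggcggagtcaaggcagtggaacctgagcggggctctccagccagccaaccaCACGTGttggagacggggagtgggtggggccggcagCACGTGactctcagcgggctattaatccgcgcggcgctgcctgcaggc
*Myom3*, chr4:135759465-135759714, plus strand: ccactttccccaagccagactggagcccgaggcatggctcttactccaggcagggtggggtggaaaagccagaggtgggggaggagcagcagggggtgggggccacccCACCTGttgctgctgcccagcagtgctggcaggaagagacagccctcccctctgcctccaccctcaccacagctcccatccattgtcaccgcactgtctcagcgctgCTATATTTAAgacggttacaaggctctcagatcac
*Ankrd2*, chr19:42035777-42036026, plus strand: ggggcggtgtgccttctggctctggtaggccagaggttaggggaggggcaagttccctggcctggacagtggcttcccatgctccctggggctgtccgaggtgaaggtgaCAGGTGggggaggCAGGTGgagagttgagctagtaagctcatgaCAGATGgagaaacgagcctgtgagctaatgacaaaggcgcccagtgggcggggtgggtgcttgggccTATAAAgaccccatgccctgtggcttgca
*Ankrd1*, chr19:36119845-36120094, minus strand: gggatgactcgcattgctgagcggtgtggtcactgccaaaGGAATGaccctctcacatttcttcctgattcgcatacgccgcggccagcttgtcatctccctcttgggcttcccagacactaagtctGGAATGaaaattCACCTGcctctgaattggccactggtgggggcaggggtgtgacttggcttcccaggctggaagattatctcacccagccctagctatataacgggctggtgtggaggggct

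*Myoz2* and *Myom3* each held a match to the MEF2 site, 33 and 35 bases before the start. Of the 32851 promoters of the table, 2.92% held one. Whether these stretches act as a TATA box was not tested. The 2 MCAT elements of *Ankrd1* lay 210 and 123 bases before the start, read as GGAATG on the strand shown, and an MCAT element was in 12.6% of all promoters. *Ankrd2* had a TATA box at 29 bases, a run of letters found in 12.4% of the table. E-boxes were in all 6 windows, with 4 in *Csrp3*, 3 each in *Actn2* and *Ankrd2*, 2 in *Myoz2* and 1 each in *Myom3* and *Ankrd1*, and in 66.2% of all promoters. *Csrp3* has a second start in the table, whose window also held 4 E-boxes. The letters were chosen with the results known, and a match describes the sequence only.

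To see how the muscles differ in these genes, the gastrocnemius was compared with the quadriceps within each diet with limma on log2 signal intensities, where a call needs a fold change above 1.3 and a Benjamini-Hochberg adjusted p (FDR) under 0.05. In LFD mice 4 of the 8 genes were called higher in the gastrocnemius and none lower, where 1.42% of the 6479 tested probe sets were called higher. With the mouse as a block, fixed or random, it was 5 of the 8, with *Ankrd2* added. In HFD mice it was 5 of the 8 and none lower, against 1.91%. The median log2 fold change of the 8 genes was 0.60 in LFD and 0.90 in HFD mice, beside -0.01 and -0.02 over all tested probe sets. In a whole muscle, fewer fibers of a type and less RNA per fiber cannot be told apart.

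**Figure D1:**
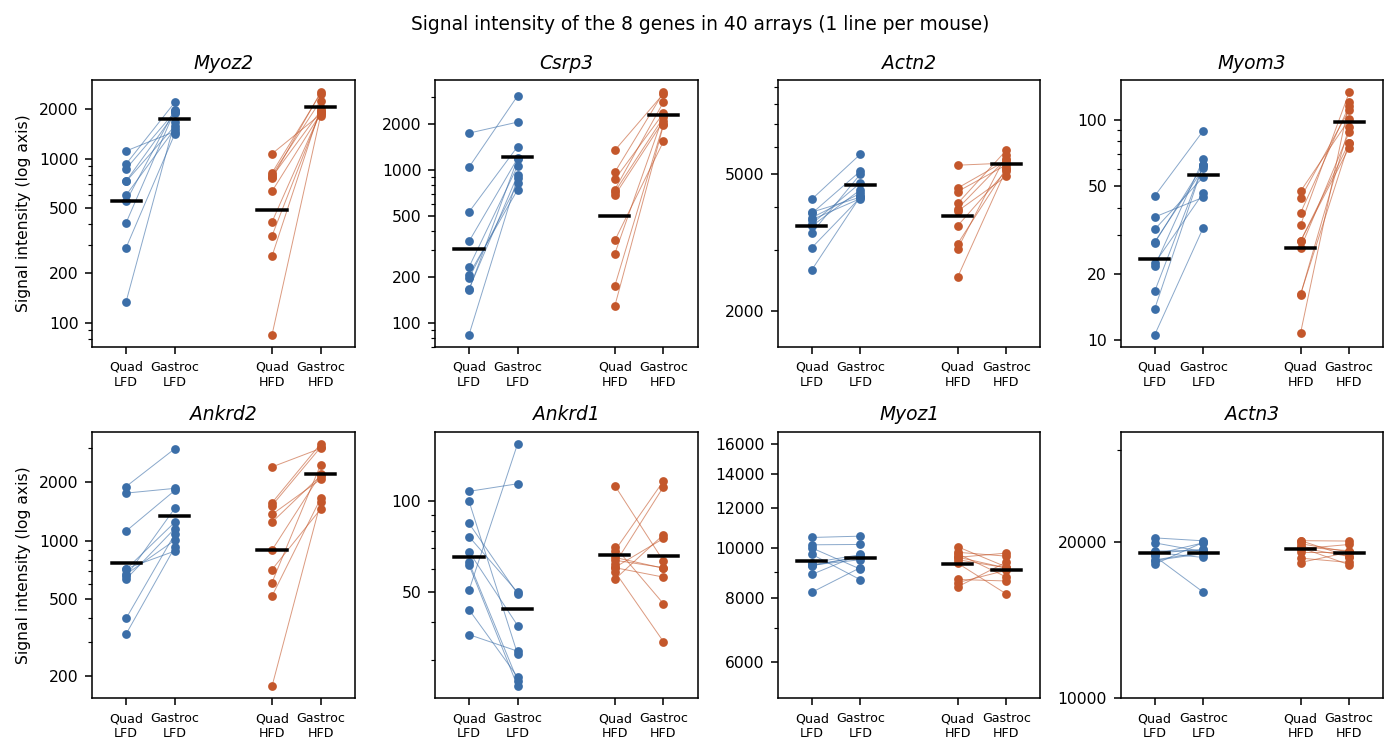
Signal intensity on a log axis of the 8 genes in the quadriceps (Quad) and gastrocnemius (Gastroc) of LFD (blue) and HFD (red) mice; points are arrays, thin lines join the muscles of a mouse and black bars are geometric means (n = 10 mice per group). *Myoz2*, *Csrp3*, *Actn2*, *Myom3* and *Ankrd2* rise from quadriceps to gastrocnemius in 10 of 10 mice on both diets, while *Myoz1* and *Actn3* stay level.

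Of the myozenins, *Myoz2* had a signal intensity from 134.7 to 1114 (median 663) in the quadriceps of LFD mice and from 1412 to 2199 (median 1783) in the gastrocnemius. In HFD mice it ranged from 84.5 to 1071 (median 695) in the quadriceps and from 1828 to 2530 (median 1948) in the gastrocnemius. The muscles did not overlap on either diet, and the gastrocnemius was higher in every mouse, from 1.31-fold in mouse 141 to 21.6-fold in mouse 151. The log2 fold change was 1.67 (standard error, SE, 0.28, limma's adjusted p = 0.00074) in LFD and 2.07 (SE 0.33, adjusted p = 0.000293) in HFD mice.

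*Myoz1*, the fast fiber myozenin, was at 9468 ± 665 (SD, n = 10) in the quadriceps and 9590 ± 535 in the gastrocnemius of LFD mice. In HFD mice its signal intensity was 9339 ± 575 and 9097 ± 484. The muscles overlapped, and the gastrocnemius was higher in 8 of 10 LFD and 3 of 10 HFD mice. The 95% interval of the log2 fold change ran from -0.08 to 0.12 in LFD and from -0.13 to 0.05 in HFD mice.

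*Actn2* had a signal intensity from 2631 to 4229 (median 3635) in the quadriceps and from 4247 to 5725 (median 4453) in the gastrocnemius of LFD mice. In HFD mice it lay between 2506 and 5314 (median 3938) in the quadriceps and between 4934 and 5876 (median 5359) in the gastrocnemius. The muscles were just apart in LFD mice, and in HFD mice the quadriceps of mouse 145 reached into the gastrocnemius range. That array also had the highest neutrophil sum, and the 5 calls in HFD mice held without mouse 145. The change of *Actn2* was the smallest among the called members, at a log2 fold change of 0.40 (SE 0.08, limma's adjusted p = 0.00271) in LFD and 0.51 (SE 0.10, adjusted p = 0.00236) in HFD mice. It fell under the fold threshold in LFD mice without mouse 142 (0.36, adjusted p = 0.00324) or mouse 147 (0.38, adjusted p = 0.0155).

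*Actn3*, the actinin of fast glycolytic fibers, was at 19019 ± 680 (SD, n = 10) in the quadriceps and 19039 ± 1165 in the gastrocnemius of LFD mice. It was at 19387 ± 603 and 19010 ± 611 in HFD mice. The muscles overlapped on both diets, and the 95% interval of the log2 fold change ran from -0.09 to 0.09 in LFD and from -0.10 to 0.04 in HFD mice. By mean signal intensity *Actn3* ranked 8 and *Myoz1* 38 among the 16475 probe sets, and whether the arrays resolve small differences so near the top of their scale was not tested.

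*Csrp3* ranged from 83.8 to 1735 (median 219) in the quadriceps of LFD mice, a 20.7-fold range, and from 742 to 3035 (median 1118) in the gastrocnemius. In HFD mice the quadriceps ranged from 129.5 to 1341 (median 700.1) and the gastrocnemius from 1530 to 3198 (median 2230). The muscles overlapped in LFD mice, where mice 141 and 148 were highest in both muscles, and did not overlap in HFD mice. Its gastrocnemius signal was higher in 10 of 10 mice on both diets. It differed by a log2 fold change of 1.98 (SE 0.43, limma's adjusted p = 0.00795) in LFD and 2.21 (SE 0.34, adjusted p = 0.000241) in HFD mice. Without mouse 141 the adjusted p in LFD mice was 0.000963.

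*Myom3*, the M-band member, had a low signal. In the quadriceps it lay between 10.6 and 45.2 (median 25.1) in LFD and between 10.8 and 47.5 (median 28.2) in HFD mice, and 6 of these 20 arrays were at 20 or below, close to the array medians of 8.8 to 9.4. In the gastrocnemius it lay between 32.5 and 89.4 (median 61.5) in LFD and between 74.9 and 133 (median 97) in HFD mice. The muscles overlapped in LFD mice only, and every mouse was higher in the gastrocnemius. The log2 fold change was 1.27 (SE 0.22, limma's adjusted p = 0.00118) in LFD and 1.90 (SE 0.22, adjusted p = 7e-06) in HFD mice. With 16 added to each signal before the log2, it was 0.86 and 1.40, so its size depends on the background.

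Of the stretch-response genes, *Ankrd2* lay between 331 and 1906 (median 693) in the quadriceps and between 886 and 2984 (median 1202) in the gastrocnemius of LFD mice. In HFD mice it lay between 178 and 2405 (median 1072) and between 1458 and 3165 (median 2186). The muscles overlapped on both diets, although the gastrocnemius was higher in 10 of 10 mice of each, by a median ratio of 1.68 in LFD and 2.03 in HFD mice. *Ankrd2* was called in HFD mice, at a log2 fold change of 1.29 (SE 0.34, limma's adjusted p = 0.022), but not without mouse 143 (adjusted p = 0.0639) or mouse 157, where its adjusted p was just above the threshold. In LFD mice the log2 fold change was 0.81 (SE 0.29, adjusted p = 0.114). With the mouse as a block, which sets the muscles of the same animal against each other, the adjusted p in LFD mice was 0.00208 for a fixed and 0.0125 for a random block.

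*Ankrd1* did not follow *Ankrd2*. It lay between 36.3 and 107.9 (median 65.6) in the quadriceps and between 24.5 and 155 (median 35.5) in the gastrocnemius of LFD mice. In HFD mice it lay between 55.3 and 113 (median 63.1) and between 34.4 and 117 (median 62). The muscles overlapped on both diets. Of the LFD mice, 2 were higher in the gastrocnemius, mice 141 and 148, which also had the highest *Csrp3* and *Ankrd2* there, and in 4 of 10 HFD mice. Between the muscles the log2 fold change was -0.57 (SE 0.31, limma's adjusted p = 0.341) in LFD and -0.01 (SE 0.18, adjusted p = 0.989) in HFD mice.

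**Figure D2:**
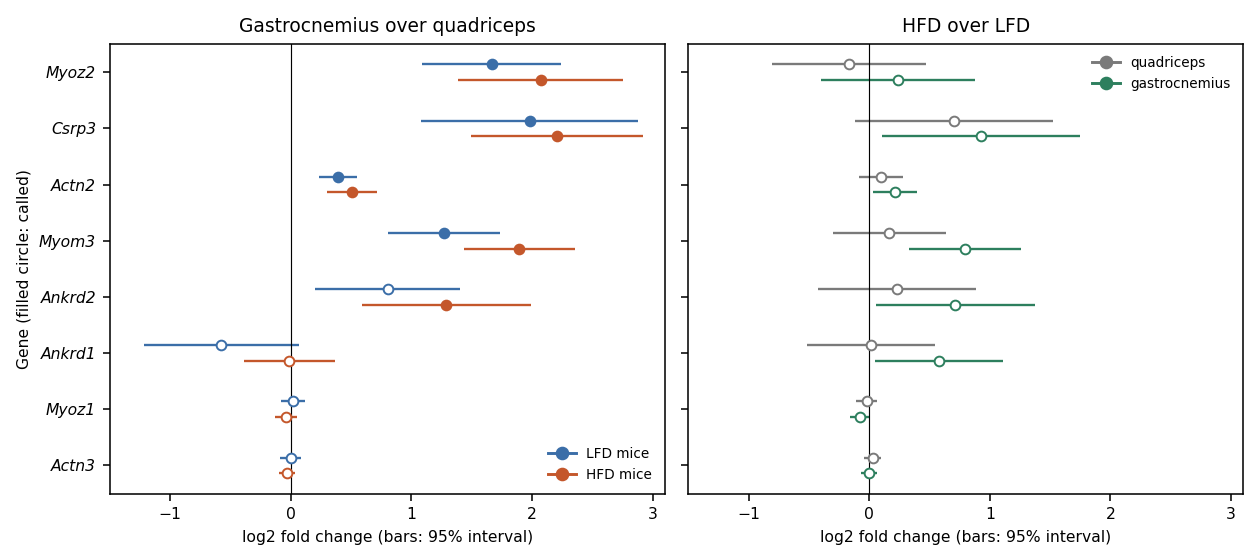
log2 fold changes of the 8 genes with 95% intervals from limma, for gastrocnemius over quadriceps within each diet (left) and HFD over LFD within each muscle (right); filled circles are called at a fold change above 1.3 and an FDR under 0.05. The muscle differences of *Csrp3* reach 1.98 and 2.21, those of *Myoz1* and *Actn3* lie near 0, and no diet difference is called.

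No overlap between the muscles, with the gastrocnemius higher, was seen for *Myoz2* and *Actn2* in LFD mice and for *Myoz2*, *Csrp3* and *Myom3* in HFD mice, thus 2 and 3 of the 8 genes, against 0.201% and 0.556% of the tested probe sets. It was seen for the same 2 genes without mouse 141, against 0.695%. Without mouse 141 the 4 calls in LFD mice held, where 1.85% of tested probe sets were called higher, and their adjusted p lay between 0.000369 and 0.00267.

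The 5 genes called on either diet had a larger SD of the log2 signal in the quadriceps than in the gastrocnemius on both diets, a difference that was not tested. The SD of the log2 signal intensity of *Myoz2* was 0.92 and 1.10 in the quadriceps of LFD and HFD mice, and 0.22 and 0.17 in the gastrocnemius. For *Csrp3* it was 1.33 and 1.12 against 0.63 and 0.33, and for *Actn2* 0.19 and 0.32 against 0.14 and 0.08. *Ankrd1* had the larger SD in the gastrocnemius, 0.92 and 0.54 against 0.50 and 0.29. The lowest quadriceps arrays of *Myoz2* and *Actn2* came from mice 142 and 156 of the LFD group and mice 151 and 143 of the HFD group. Those 4 arrays also had the lowest summed signal of the 9 measured slow fiber genes, between 377 and 475, where the medians of the groups were 4186 and 4153.

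Relative to its fast counterpart, each slow or general isoform was higher in the gastrocnemius. The log2 ratio of *Myoz2* over *Myoz1* shifted by 1.65 ± 0.97 (SD, n = 10 mice) from quadriceps to gastrocnemius in LFD and by 2.11 ± 1.07 in HFD mice. That of *Actn2* over *Actn3* shifted by 0.40 ± 0.22 and 0.54 ± 0.32, and both ratios rose in 10 of 10 mice on each diet. The shift was tested within mice with an exact two-sided permutation test, and the adjusted p over 6 tests was 0.00234 for each of these 4 shifts; the raw p of 0.00195 is the smallest that 10 mice allow. The log2 ratio of *Ankrd1* over *Ankrd2* went the other way, with a mean shift of -1.38 ± 1.12 (exact permutation test, adjusted p = 0.0117) in LFD and -1.30 ± 0.93 (adjusted p = 0.00234) in HFD mice. It fell in 8 of 10 LFD mice, with the exceptions 141 and 148, and in 10 of 10 HFD mice. A change of either partner moves such a ratio, and the shifts of the myozenins and actinins lie near the log2 fold changes of *Myoz2* and *Actn2* alone.

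The diet left these genes without a call. Between HFD and LFD mice 0 of the 8 genes were called in the gastrocnemius and 0 in the quadriceps with limma, where 0.216% and 0.0617% of tested probe sets were called in either direction. In the gastrocnemius, 5 of the 8 were higher in HFD mice at an unadjusted p under 0.05, namely *Myom3*, *Actn2*, *Csrp3*, *Ankrd1* and *Ankrd2*, against 3.15% of all tested probe sets. Leaving out each mouse in turn gave 3 to 5 such genes, and 5 without mouse 141. These genes share their arrays and several varied together between mice. In the quadriceps none of the 8 was higher at this level, against 2.7%, and without mouse 141 it was 1, *Csrp3*.

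*Myom3* came closest. Its gastrocnemius signal was 58.3 ± 15.2 (SD, n = 10) in LFD and 99.5 ± 20 in HFD mice, and 9 of 10 LFD mice, all but mouse 148, lay below every HFD mouse. The log2 fold change was 0.79 (SE 0.23, limma's adjusted p = 0.129). It was called with 16 added to each signal (0.65, adjusted p = 0.0171) and with array weights (0.82, adjusted p = 0.0172). *Csrp3* was at 1330 ± 708 and 2346 ± 533 in the gastrocnemius, and the log2 fold change was 0.93 (SE 0.40, adjusted p = 0.44). *Ankrd2* was at 1444 ± 642 and 2281 ± 626, and its log2 fold change was 0.71 (SE 0.33, adjusted p = 0.489). Below every HFD mouse were 8 of 10 LFD mice for *Csrp3* and 6 of 10 for *Ankrd2*, and mouse 148 of the LFD group was among the high HFD values in both. In the quadriceps the largest difference was that of *Csrp3*, at 469 ± 525 in LFD and 625 ± 388 in HFD mice (log2 fold change 0.70, SE 0.40, adjusted p = 0.997).

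To ask whether the diet changed the difference between the muscles, an interaction term of both factors was fitted to all 40 arrays. None of the 8 genes passed an FDR of 0.05 with limma (0% of the 6479 tested probe sets did, and 118 had an unadjusted p under 0.05, none of them a member). The count over all tested probe sets was also 0 with the mouse as a random block and with array weights. The largest was that of *Myom3*, at a log2 difference of 0.62 (SE 0.33), followed by *Ankrd1* with 0.56 and *Ankrd2* with 0.48. Their 95% intervals ran from -0.03 to 1.28 for *Myom3*, from -0.19 to 1.31 for *Ankrd1* and from -0.45 to 1.41 for *Ankrd2*. Without mouse 141 the order changed, with *Ankrd1* at 0.63, *Myom3* at 0.52 and *Ankrd2* at 0.40, and again none passed.

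Across mice, the signals of several members rose and fell together within a muscle. For each muscle the log2 deviations from the diet mean were correlated over 20 mice for the 28 pairs of members, with 100000 permutations within diets and adjustment over 56 tests. Both Pearson's and Spearman's coefficient passed an adjusted p of 0.05 for 11 pairs in the quadriceps and 7 in the gastrocnemius. *Csrp3* with *Ankrd2* was the closest pair in the gastrocnemius, with r = 0.95 and rho = 0.95. It was the next closest in the quadriceps, with r = 0.92 and rho = 0.94. Each raw permutation p was 1e-05, the smallest that the permutations give (adjusted p = 0.000187). This pair had r between 0.92 and 0.97 within each diet and muscle, and 0.91 and 0.93 without the 2 mice farthest in *Csrp3*, mice 141 and 148.

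**Figure D3:**
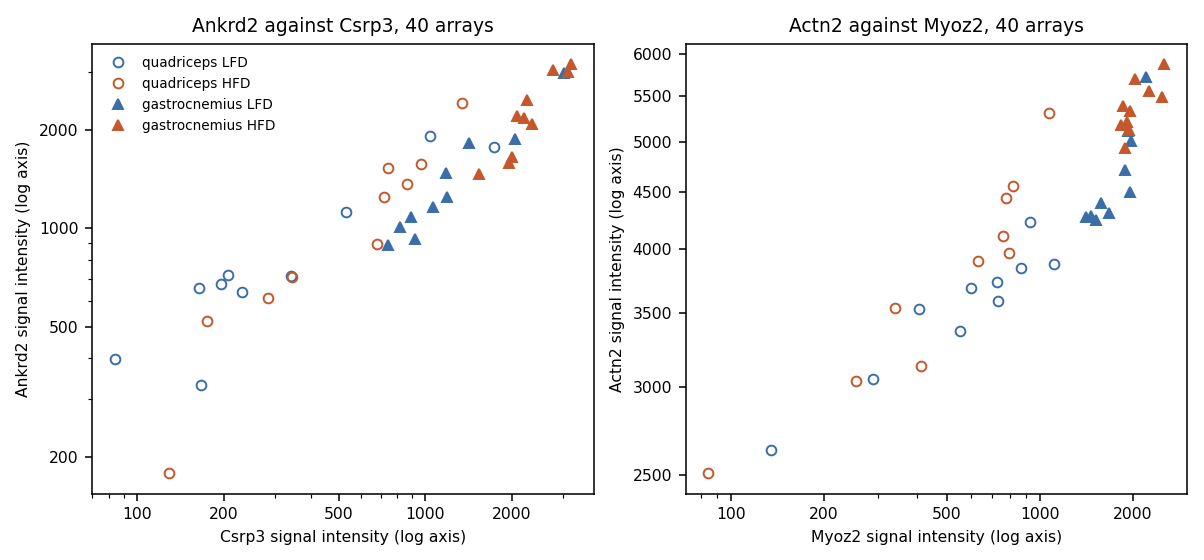
Signal intensity, on log axes, of *Ankrd2* against *Csrp3* (left) and of *Actn2* against *Myoz2* (right) in 40 arrays; open circles are quadriceps and filled triangles gastrocnemius, blue LFD and red HFD mice. *Csrp3* and *Ankrd2* follow a common line, with the quadriceps arrays spread over most of it.

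*Myoz2* and *Actn2* formed the closest pair in the quadriceps, with r = 0.93 and rho = 0.95 (adjusted permutation p = 0.000187 for both). They were the next closest in the gastrocnemius, with r = 0.81 and rho = 0.83 (adjusted permutation p = 0.00042 and 0.000747). *Myom3* followed *Myoz2*, with r = 0.80 in the quadriceps and r = 0.71 in the gastrocnemius. *Csrp3* and *Ankrd2* also correlated with *Myoz2* in the quadriceps, at r = 0.74 and r = 0.77. In the gastrocnemius the same pairs had r = 0.38 and r = 0.48 and did not pass, and the difference between the muscles was not tested. Without mouse 141 both passed there, at r = 0.57 for *Csrp3* (adjusted permutation p = 0.031 for Pearson's and 0.040 for Spearman's coefficient). For *Ankrd2* it was r = 0.61 (adjusted permutation p = 0.020 and 0.012). *Ankrd1* passed with no other member in either muscle. Its r of 0.56 with *Csrp3* in the gastrocnemius rested on mice 141 and 148, without which it was 0.0004. *Myoz1* varied with *Actn3* in the quadriceps at r = 0.71. In the gastrocnemius this pair had r = 0.66 and passed by Pearson's coefficient only (adjusted permutation p = 0.0051 and 0.068). *Myoz1* varied against *Myom3* in the gastrocnemius at r = -0.55. In the quadriceps it was r = -0.56, which passed by Pearson's coefficient only (adjusted permutation p = 0.038 and 0.057). Without mouse 141 *Myoz1* with *Myom3* passed in the quadriceps (r = -0.73) and not in the gastrocnemius (r = -0.51). Without mouse 141, 17 pairs passed in the quadriceps and 9 in the gastrocnemius.

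**Figure D4:**
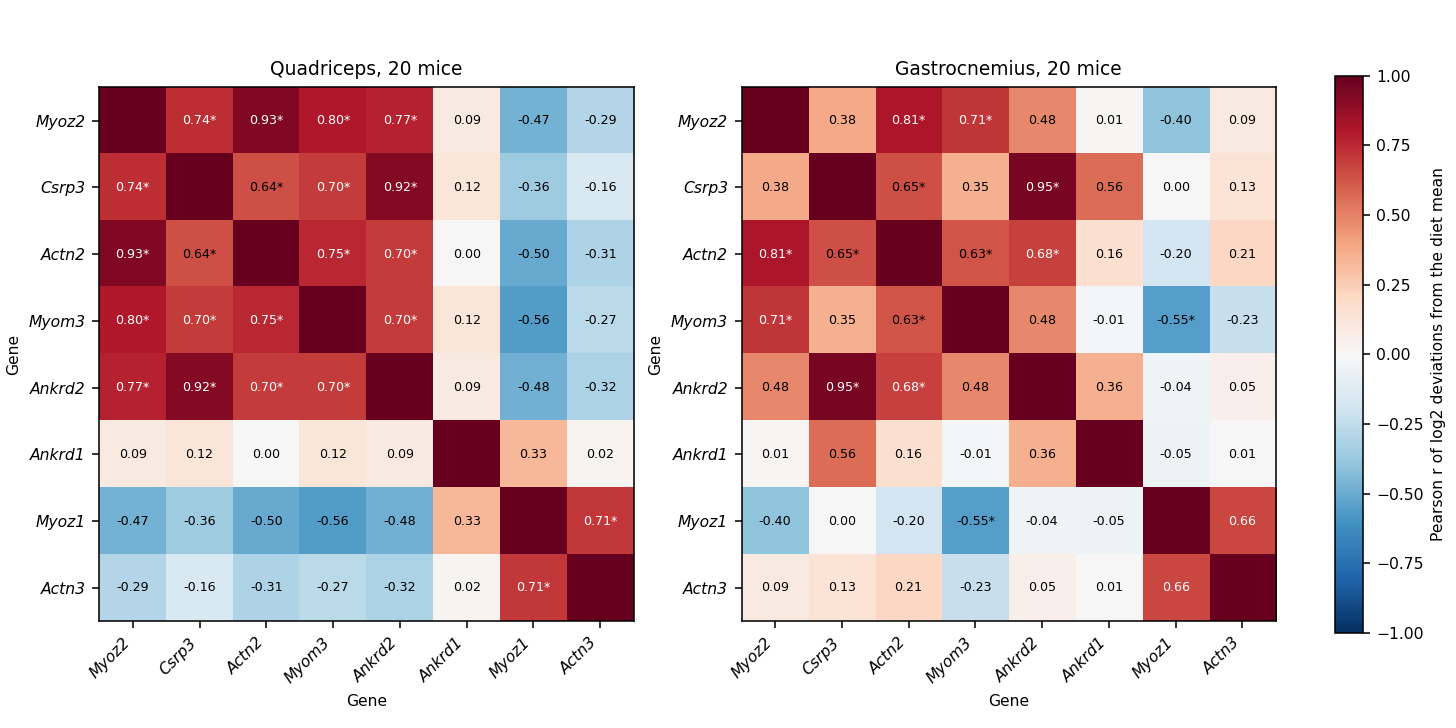
Pearson's r of the log2 deviations from the diet mean for each pair of the 8 genes in the quadriceps (left) and the gastrocnemius (right), 20 mice each; an asterisk marks pairs whose Pearson and Spearman coefficients both had an adjusted permutation p under 0.05. *Csrp3* with *Ankrd2* and *Myoz2* with *Actn2* are the strongest pairs in both muscles, and *Ankrd1* has no asterisk.

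The myosin heavy chains mark the fiber types, with *Myh7* for slow and *Myh2*, *Myh1* and *Myh4* for progressively faster fibers. In a test added after the data were seen, each member was correlated with each of the 4 over 20 mice, and 16 of 64 relations passed with both coefficients. *Myoz2*, *Actn2* and *Myom3* rose and fell with *Myh7* in the quadriceps, at r = 0.87, 0.81 and 0.80 (adjusted permutation p = 0.000107, 0.000107 and 0.00072), and with *Myh2* at r = 0.91, 0.87 and 0.85 (adjusted permutation p = 0.000107 each). *Csrp3* and *Ankrd2* did not pass with *Myh7* by both coefficients in either muscle. Their r was 0.55 and 0.56 in the quadriceps, and -0.09 and -0.01 in the gastrocnemius. Mouse 141 had the highest *Csrp3* of all quadriceps arrays, at 1735, with *Myh7* at 286, where the LFD median was 249. The r without this mouse are not given here. *Myoz1* ran opposite to *Myh1* in both muscles, at r = -0.86 in the quadriceps and r = -0.84 in the gastrocnemius (adjusted permutation p = 0.000274 and 0.000107). Without the 2 mice farthest in the marker, these r were 0.82, 0.74 and 0.74 for *Myh7*, 0.87, 0.80 and 0.88 for *Myh2*, and -0.85 and -0.83 for *Myoz1* with *Myh1*.

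The non-member genes most alike to each member were taken by Pearson's r of log2 deviations from the group mean over 40 arrays, as a description. For *Myoz2* they were *Myl2* (r = 0.92), *Myl3* (0.88) and *Myh2* (0.88), myosin light and heavy chains. *Actn2* was closest to *Mb* (0.87), the oxygen store myoglobin, *Lmod2* (0.86), a leiomodin of the thin filament, and *Smtnl1* (0.86). *Myom3* was closest to *Myh2* (0.83), *Ldhb* (0.81), a lactate dehydrogenase subunit, and *Lmod2* (0.81). *Csrp3* was closest to the LIM protein gene *Fhl1* (0.77), *Myl12a* (0.72) and *Myh10* (0.71), and *Ankrd2* to the sodium pump subunit *Atp1b1* (0.79), *Lmod2* (0.72) and *Pdlim1* (0.72). *Myoz1* was closest to *Marchf5* (0.88), *Ppm1a* (0.86) and *Jsrp1* (0.85), and *Actn3* to *Ccdc124* (0.84), *Anapc5* (0.82) and *Eef1a2* (0.82). The values for *Ankrd1* were lower, with *Rnf19a* (0.57), *Rnf115* (0.55) and *Klhl30* (0.54). They differed by muscle, at 0.71 and 0.79 in the gastrocnemius against 0.23 and 0.17 in the quadriceps for *Rnf115* and *Klhl30*. For *Rnf19a* they were 0.53 and 0.67. Differences by muscle were not particular to *Ankrd1*. In the same order, *Actn2* with *Smtnl1* had 0.53 and 0.93 and *Ankrd2* with *Pdlim1* 0.42 and 0.79, whereas *Myom3* with *Ldhb* had 0.84 and 0.81.

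The other genes of the same structures were counted by the same thresholds, beside the 1.42% and 1.91% of all tested probe sets called higher. An unadjusted p under 0.05, in either direction, was found for 19% of all tested probe sets in LFD and 18.7% in HFD mice. Of 23 tested genes of the Z-disc beside the members, 2 were called higher in the gastrocnemius on each diet and none lower, *Fhl1* and the PDZ and LIM protein gene *Pdlim1*, and the median log2 fold change was 0.01 in LFD and 0.10 in HFD mice. An unadjusted p under 0.05 was found for 5 of the 23 in LFD and 6 in HFD mice. *Fhl1* was at 5188 ± 1034 (SD, n = 10) in the quadriceps and 7667 ± 783 in the gastrocnemius of LFD mice (log2 fold change 0.58, limma's adjusted p = 0.00074). Of 14 genes of the M-band and titin, 0 were called in LFD mice, where 4 had an unadjusted p under 0.05, and 1 in HFD mice, *Hspb7*, which encodes a small heat shock protein of muscle (log2 fold change 0.86, adjusted p = 0.00176), where again 4 had an unadjusted p under 0.05. Without mouse 141 *Hspb7* was also called in LFD mice (0.57, adjusted p = 0.0221). Among 13 other genes of the stretch response 0 were called with limma on either diet, with an unadjusted p under 0.05 for 6 in LFD and 3 in HFD mice. By the FDR alone, without the fold threshold, 1 of these 13 was higher in the gastrocnemius on each diet. By the same measure 1 of the 14 genes of the M-band and titin was lower on each diet, and 3 of the 23 Z-disc genes were higher in HFD mice. The counts over all tested probe sets without the fold threshold are given below, in either direction, whereas these list counts are by direction. Of 10 genes of calcineurin signaling, *Ppargc1a*, a coactivator of oxidative genes, was higher on both diets (0.61 and 0.98, adjusted p = 0.0429 and 0.00139), and *Rcan1*, an inhibitor of calcineurin, in HFD mice (0.60, adjusted p = 0.0332). Over the 60 genes of these lists, limma called 0 for the diet in either muscle, and 13 in the gastrocnemius and 2 in the quadriceps had an unadjusted p under 0.05, where 8.97% and 5.68% of all tested probe sets did.

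Slow fiber genes were higher beside the members that rose. Of 8 tested, 6 were called higher in the gastrocnemius of LFD mice and 7 in HFD mice, with a median log2 fold change of 2.47 and 2.67. The log2 fold change of *Tnni1*, the slow troponin I, was 3.05 (SE 0.62, limma's adjusted p = 0.00447) in LFD and 3.06 (SE 0.56, adjusted p = 0.0012) in HFD mice. That of *Myh7* was 3.22 (SE 0.73, adjusted p = 0.0081) in HFD mice. The lowest quadriceps signals of *Tnni1* were 4.9 in LFD and 6 in HFD mice, and that of *Myh7* was 4.9 in HFD mice. These lie below the array medians of 8.8 to 9.4, which limits the size of these fold changes. The mean signal of *Tnni1* was 78.4 in the quadriceps and 349 in the gastrocnemius of LFD mice. The 10 tested fast fiber genes had a median of -0.02 on both diets, with *Myh2* as the 1 called, at 0.44 in LFD and 0.49 in HFD mice.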

How the data were processed

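RNA of 40 muscles was hybridised to Affymetrix Mouse Genome 430 2.0 arrays. Probes had been reassigned by the authors so that each Entrez gene has a single probe set, followed by quantile normalization and GC-RMA (no version stated). The deposited signal intensity is linear and carries no counts, so the number of arrays limits the precision. Of 16539 probe sets, 64 controls were left out. Names came from the platform annotation and were updated through RefSeq for 15752 probe sets; 28 kept the platform name and 695 had none.

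Here the 6479 probe sets (39.3%) with a mean over 20 were put on the log2 scale and tested in R 4.3.3 (limma 3.58.1), with adjustment over all of them. Muscles were compared on the 20 arrays of a diet, diets and the interaction on 40 arrays with 4 group means. Fold changes are ratios of geometric means. The fit was tested on simulated data with independent noise on each array and no effect of the mouse, which does not cover the pairing of muscles. Permutation tests used scipy 1.17.1, numpy 2.4.6 and pandas 2.3.3 in Python 3.11.15, and figures matplotlib 3.10.9. Alternatives were other signal filters (none, 50), 16 added to the signal, repeated normalization, other variance models, array weights, mouse blocks, other thresholds and each mouse left out. Leaving out mouse 141 for ratios, pairs, overlap and gene lists, and the correlations with myosin genes and between muscles, were added after the data were seen. Mouse numbers pair the muscles of an animal, and the deviations of the muscles from their group means had a median correlation of 0.39 within an LFD mouse (-0.07 to 0.63) and -0.05 between mice, and of -0.07 (-0.21 to 0.43) and -0.01 in HFD mice.

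The members, lists and tests were chosen with earlier results of these data known. Named are all members, of each other list up to 4 called genes per muscle comparison and direction, the 3 genes most alike to each member, and 4 myosin genes. *Tbx1*, *Hoxd8*, *Acta1*, *Ckm*, *Nppa*, *Nppb*, *Myh6*, *Tnni3*, *Myl7* and *Tnnt2* were named to check the labels and the tissue.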

Additional observations from a re-analysis of the deposited data

Results flagged for a closer look

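Among the 32 sets of 10 arrays, 1 for each member and group, 2 had an array far from the others by Dixon's test on the log2 signal, where chance gives about 1 in 20. *Ankrd1* was at 113 in the quadriceps of HFD mouse 152, and the next array was at 70.9. *Actn3* was at 15998 in the gastrocnemius of LFD mouse 142, and the next array was at 18657. Without mouse 142 the log2 fold change of *Actn3* between the muscles of LFD mice was 0.03 (limma's adjusted p = 0.758), and without mouse 152 that of *Ankrd1* in HFD mice was 0.08 (adjusted p = 0.91).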

How the results depend on the processing

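Of 984 values of single members under alternatives, 948 kept their direction and their side of the thresholds, 4 passed the thresholds where the reported value did not, 4 no longer passed and 28 changed sign. The counts of members called between the muscles stayed within 1.5 times under every alternative run. In the gastrocnemius, HFD against LFD, the count of members rose from 0 to 1 with 16 added to the signal and to 1 with array weights, through *Myom3*; the cause was not tested. Array weights also raised the calls over all tested probe sets there from 14 to 46 and lowered them in the quadriceps from 4 to 2, and without the fold threshold 338 and 429 probe sets were called between the muscles of LFD and HFD mice in place of 163 and 224. The mouse as a replicate block, fixed or random, moved *Ankrd2* in LFD mice past the thresholds (adjusted p = 0.00208 and 0.0125) and changed no other call of a member, and the pairing gave 219 and 225 calls over all probe sets in LFD mice. A fixed block cannot be fitted to a comparison of diets, which lie between mice. Without mouse 141 the pairs of members that passed in the quadriceps rose from 11 to 17; the cause was not tested. All changes of sign were in differences that were not called. The log2 fold change of *Ankrd1* between the muscles of HFD mice was 0.0014 with 16 added and 0.014 with repeated quantile normalization, and -0.11 to 0.080 without each mouse. That of *Actn3* in LFD mice was 0.018 with repeated normalization and 0.030 with array weights, and -0.016 to 0.025 without each mouse. Leaving out each mouse gave -0.028 to 0.0087 for *Actn3* (HFD against LFD, gastrocnemius), -0.39 to 0.11 for *Myoz2* and -0.078 to 0.097 for *Ankrd1* (both in the quadriceps). Signals of *Myom3* in the quadriceps near background limit the size of its fold changes.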

Other observations

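Whether a member's level was shared by the muscles of a mouse was described after the data were seen, over the 10 mice of each diet (16 tests). *Csrp3* had r = 0.85 and rho = 0.73 between the quadriceps and the gastrocnemius of LFD mice (adjusted permutation p = 0.0202 and 0.108) and r = 0.68 and rho = 0.84 in HFD mice (adjusted permutation p = 0.125 and 0.0587). *Ankrd2* had r = 0.85 and rho = 0.65 in LFD mice (adjusted permutation p = 0.0202 and 0.197) and r = 0.74 and rho = 0.73 in HFD mice (adjusted permutation p = 0.0576 and 0.108). None of the 16 passed with both coefficients. In LFD mice the 2 mice farthest in the quadriceps were 141 and 148 for both genes, and r without them was 0.62 and 0.64. For *Myoz2* r was 0.21 and 0.43, and for *Actn2* 0.51 and 0.20.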
